A study of Gallus gallus with 10 samples.

Results

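Anterior placode progenitors (aPPs) of the chick were compared before and after 5 hr of culture, on 5 of the 10 Affymetrix chicken arrays of the series. The comparison rests on 3 arrays of aPPs taken fresh from embryos and 2 arrays of cultured aPPs. Its arrays were set by their sample labels, and the comparison was chosen with earlier results of these data known. The other 5 arrays hold 3 samples of posterior placode progenitors (pPPs) and 2 of cultured pPPs, which were used to share the estimate of the spread and to ask where the 2 regions responded differently.

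The tissue was the anterior part of the preplacodal region, cut out by hand with pins from chick embryos and kept on ice. The titles of the uncultured samples give the stage HH6 and those of the cultured samples give none, and the characteristics give a range of HH5-7. For culture the pieces were set in rat tail collagen for 5 hr. The labels give the same stage range for all 10 samples and name no added factor, drug or altered gene for any of them. No array holds aPPs that stayed in the embryo over these 5 hr, so that culture and 5 hr of added age cannot be told apart. The labels number the samples as sets but do not say whether sets come from separate dissections, and p-values therefore measure the spread between these arrays, which may be technical.

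The preplacodal region is a band of ectoderm around the anterior neural plate that gives rise to the sense organs and cranial ganglia of the head. Its progenitors express EYA2, and its anterior part later forms the lens, the olfactory epithelium and the anterior pituitary. The paired and homeodomain factor PAX6 marks the anterior part, where it is needed for lens and olfactory development, and placode progenitors isolated from their neighbors are known to take on lens character in culture.

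Each array gives a linear MAS5 signal per probe set in arbitrary units. The signals of the 10 arrays were brought to the same quantiles, 16 was added and log2 taken. All log2 differences below are cultured aPP minus aPP on this log2(signal + 16) scale, which understates the change of dim genes, and single signals are normalized values without the added 16. Of 38439 probe sets on the array, 21591 were called present by MAS5 on 2 or more of 8 arrays and were tested with limma, and a probe set is called when its Benjamini-Hochberg adjusted p over all of them is under 0.05. They stand for 9728 named genes, each represented by its brightest tested probe set. Deposited signals had trimmed means from 53.04 to 168 and between 44.7 and 50.2 percent of probe sets present, and aPP 1 was the array with the highest of both. The 2 cultured aPP arrays correlated at 0.990 over the tested probe sets, the aPP arrays with each other at 0.976 to 0.982, and the cultured with the uncultured aPPs at 0.967 to 0.974. The array labelled cultured pPP set 2 correlated more highly with the cultured aPPs (0.984 and 0.985) than with cultured pPP 1 (0.979). Its column in 1 deposited table has the same name as that of cultured aPP 2. The main values resting on it are therefore given with and without it, and some counts with it only.

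After culture 454 probe sets (2.1 percent of those tested) were higher and 347 (1.61 percent) were lower in aPPs. Counted as genes, 278 of 9728 were higher (2.86 percent) and 163 were lower (1.68 percent). The change exceeded 2-fold for 236 of the higher and 152 of the lower probe sets. Signals of the 2 groups did not overlap for any of these 801 probe sets. They were picked by a small p on the same arrays, so that the lack of overlap adds no support to the calls. Of those higher, 44 had no present call on any of the 3 aPP arrays. In bulk samples a lower signal can come from fewer cells of a type or from less RNA per cell, which cannot be told apart here.

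These counts rest on both cultured arrays: with cultured aPP 2 alone 89 probe sets were higher and 58 lower, and with cultured aPP 1 alone 100 were higher and 55 lower, where the lone array is assumed to vary like the other groups. They fell to 302 higher and 241 lower without aPP 2, and to 355 higher and 237 lower without aPP 1. Scaled to a common trimmed mean in place of quantiles, 44 percent of the calls were higher (422 higher, 537 lower) against 56.7 percent here. Without normalization, where the array scales differ as given above, 31 of the 801 were still called and the median of all probe sets shifted by -0.19. No called probe set changed sign in any of these fits, nor in the others that were run. As the groups do not overlap for any of the 801, leaving out an array or changing the offset could not change a sign.

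**Figure D1:**
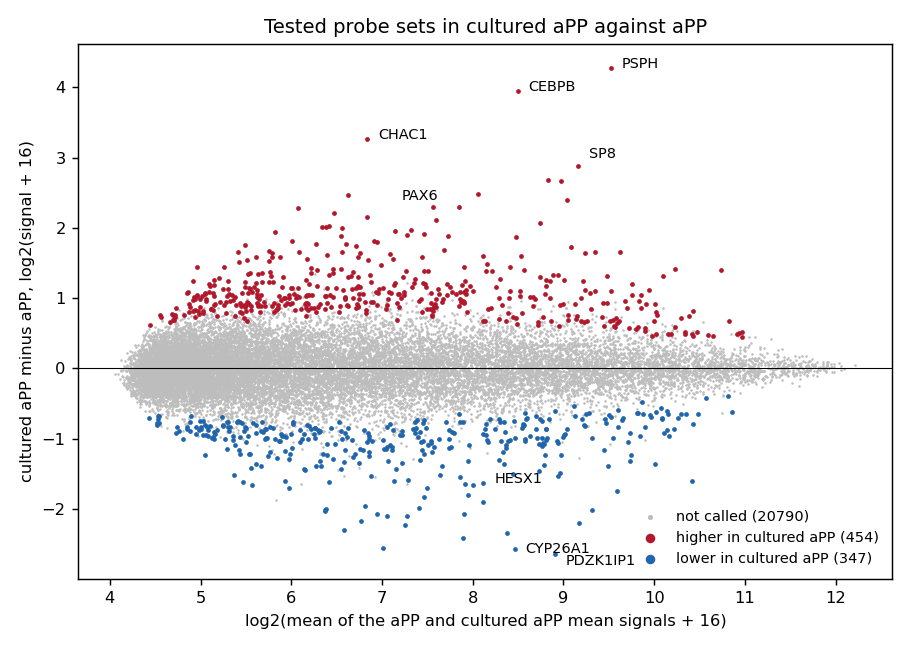
Each point is a tested probe set, placed by the mean of its signals in aPPs and cultured aPPs (x axis, log2) and by its difference between cultured aPPs and aPPs (y axis, log2), with called probe sets in color. There are 454 increases and 347 decreases, and PSPH, CEBPB and CHAC1 lie highest among the genes named in the plot.

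The largest increases were those of PSPH, CEBPB and CHAC1, followed by the transcription factor SP8. PSPH, the enzyme of the last step of serine synthesis, had signals of 58.8, 40.3 and 74.0 in aPPs and 1414 and 1349 in cultured aPPs. Both cultured arrays lay far above the 3 fresh ones (log2 difference 4.27, standard error 0.20, adjusted p = 1.43e-08 from limma), although a second, dimmer probe set of PSPH had means of 13.4 and 11.3 and was not called. CEBPB, a leucine zipper transcription factor, had 24.8, 24.5 and 35.1 in aPPs and 661 and 665 in cultured aPPs (log2 difference 3.95, standard error 0.22, adjusted p = 7.68e-08 from limma). CHAC1, which degrades glutathione, had 1.24, 10.96 and 2.14 in aPPs and 264 and 119 in cultured aPPs. It had no present call in aPPs and was at least 9.19-fold higher in cultured aPPs (adjusted p = 8.07e-05 from limma), a bound set against the higher of its own signal and the lowest signal with a present call on each aPP array.

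SP8, a zinc finger transcription factor of the Sp family, had 123, 123 and 114 in aPPs and 871 and 1121 in cultured aPPs. The 3 fresh arrays lay close together and the 2 cultured arrays were about 7.39 times as high on the scale with the added 16 (log2 difference 2.89, standard error 0.18, adjusted p = 2.58e-07 from limma). The 15 largest increases also hold SCIN, which severs actin filaments (2.67, adjusted p = 0.000171), CAV1, the coat protein of caveolae (2.48, adjusted p = 0.000639), the tetraspanin TSPAN1 (2.30, adjusted p = 2.05e-05) and SLC28A3, a nucleoside transporter (2.01, adjusted p = 0.000834). STMN2, a regulator of microtubules known from neurons, had 37.3, 21.4 and 20.1 in aPPs and 191 and 150.1 in cultured aPPs, and both of its tested probe sets rose (2.16, adjusted p = 0.000171 for the brighter).

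Annexins and S100 proteins were among these genes, and the members of both families are given here as a choice made after their values had been seen. Of 8 tested annexins, which bind membranes when calcium is present, 5 were higher and none was lower. Of all genes 2.86 percent were higher, and the annexin median was 0.92 against 0.0020 for all genes. ANXA1 had no present call in aPPs, with 5.00, 3.66 and 12.8 in aPPs and 107 and 83.7 in cultured aPPs (2.28, adjusted p = 0.000377), ANXA8L1 had 145, 50.8 and 144 in aPPs and 641 and 886 in cultured aPPs (2.68, adjusted p = 0.000304), and ANXA2 rose by 1.65 (adjusted p = 0.000332). ANXA4 and ANXA5 differed by 0.011 and 0.096 and were not called. Of 5 tested genes of the S100 family of calcium sensors, 3 were higher (median 1.27), against the same 2.86 percent of all genes. S100A10, the partner of annexin A2, had 669.6, 515 and 756 in aPPs and 1744 and 1703 in cultured aPPs (1.41, adjusted p = 0.000219). S100A6 had 146, 152 and 149.8 in aPPs and 628 and 728 in cultured aPPs, with fresh arrays that hardly differed (log2 difference 2.07, standard error 0.22, adjusted p = 0.000123 from limma). The called members in both families held with 1 cultured array left out, except S100A11 (adjusted p = 0.0626 and 0.228 without cultured aPP 1 and 2), ANXA6 (0.166 and 0.135) and ANXA11 (0.0913 and 0.461, and 0.087 and 0.0926 without aPP 1 and 3).

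**Figure D2:**
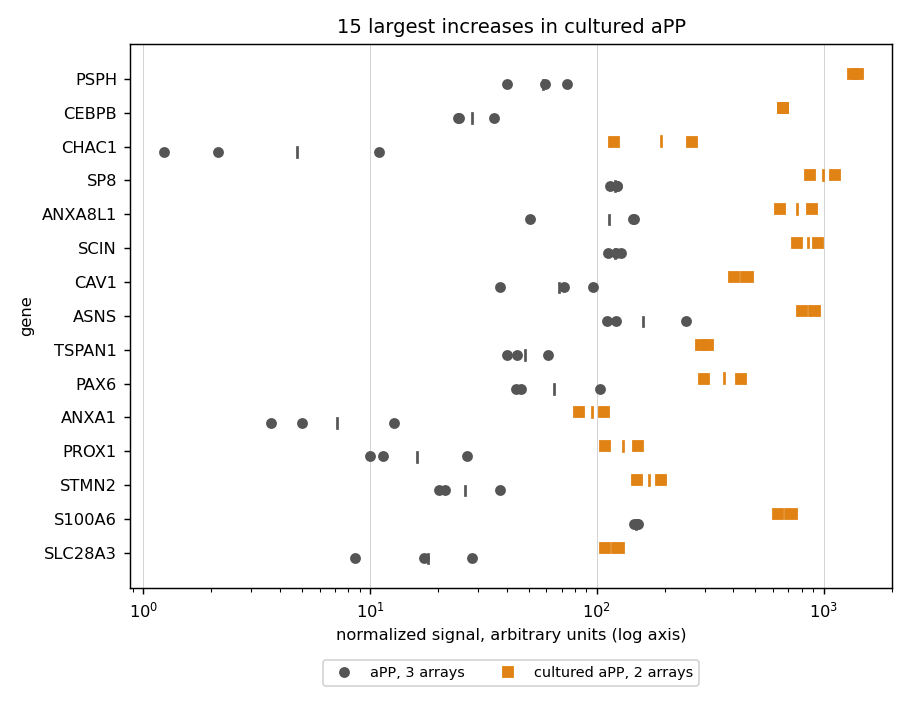
Normalized signals on a log axis of the 15 named genes with the largest increases, with grey circles for the 3 aPP arrays, orange squares for the 2 cultured aPP arrays and vertical ticks for the group means. Only genes whose groups do not overlap were taken, so that the cultured arrays lie to the right of all aPP arrays by choice. The gap is widest for PSPH, CEBPB and CHAC1.

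Many genes on a list of the integrated stress and amino acid response, called the amino acid response below, rose. When amino acids are short or eIF2alpha is phosphorylated for another reason, cells translate the transcription factor ATF4, which raises genes for amino acid synthesis, amino acid transporters and tRNA synthetases. Of 38 genes on a list of this response, 30 had a named probe set and 29 were tested. This list and the lists below were written with earlier results of these data known, so that their shares are no independent test. Among these, 14 were higher and 1 was lower, against 2.86 and 1.68 percent of all genes, and their median difference was 0.67 against 0.0020 for all genes. In cultured pPPs 11 of the 29 were higher and none was lower, against 2.24 and 1.7 percent of all tested probe sets. Fewer were higher with the array labelled cultured pPP set 2 left out. With either cultured aPP array left out fewer of the 29 were called in aPPs, as were fewer of all probe sets. The median stayed at 0.68 without cultured aPP 1 and at 0.73 without cultured aPP 2.

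Among enzymes, ASNS, which makes asparagine, had 111, 247 and 121 in aPPs and 806 and 920.2 in cultured aPPs (log2 difference 2.40, standard error 0.29, adjusted p = 0.000287 from limma). The mitochondrial folate enzymes MTHFD2 (1.24, adjusted p = 0.00374) and ALDH1L2 (1.12, adjusted p = 0.0079) were higher as well. The genes of serine synthesis went both ways. PSAT1, the middle enzyme, had 1340.3, 1493 and 1312 in aPPs and 2102 and 2306 in cultured aPPs and rose by 0.67 (adjusted p = 0.00129), whereas PHGDH, the enzyme of the first step, had dim signals of 24.4, 23.2 and 27.2 in aPPs and 4.71 and 9.42 in cultured aPPs and fell by 0.83 on the log2 scale (adjusted p = 0.0177 from limma). PHGDH was called present on only 1 of the 3 aPP arrays.

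Of the transporters, SLC1A4 for neutral amino acids had 576, 496 and 587 in aPPs and 1173 and 1125 in cultured aPPs (log2 difference 1.04, standard error 0.14, adjusted p = 0.000639 from limma). SLC7A3, a carrier of cationic amino acids, and SLC7A5, a carrier of large neutral ones, rose by 0.92 and 0.68 (adjusted p = 0.0082 and 0.00794), while the cystine carrier SLC7A11 was dim and had 0.18 (adjusted p = 0.681). Among tRNA synthetases GARS rose by 0.85 (adjusted p = 0.00315), and those that charge serine, alanine, cysteine, tryptophan, glutamate and asparagine were not called, with differences from -0.25 for NARS to 0.74 for SARS1. ATF4 itself had 2344, 2430.0 and 2364 in aPPs and 2896 and 2831 in cultured aPPs, a narrow gap without overlap that was not called for this probe set (0.27, adjusted p = 0.0812), though 1 of its 2 probe sets was. ATF3, a factor induced by stress, rose by 0.86 (adjusted p = 0.0427) and lost its call without aPP 1 or aPP 3 (adjusted p = 0.129 and 0.094) or without either cultured array (0.36 and 0.182), and it was at 0.0525 with the array labelled cultured pPP set 2 left out. VLDLR, a lipoprotein receptor, and STC2, a secreted glycoprotein, rose by 1.09 and 1.08 (adjusted p = 0.0148 and 0.00301).

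PSPH, CEBPB, CHAC1, ASNS and SLC1A4 were called whichever of the 5 arrays was left out. The other called members lost their call without 1 or both cultured arrays: without cultured aPP 1 for MTHFD2, ALDH1L2, VLDLR, SLC7A3, SLC7A5, GARS and PHGDH (adjusted p between 0.0613 and 0.294), and without cultured aPP 2 for MTHFD2, ALDH1L2, VLDLR, STC2, SLC7A3, SLC7A5, PSAT1 and PHGDH (between 0.0596 and 0.285). VLDLR also lost it without aPP 2 (0.0506).

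The unfolded protein response, which shares the eIF2alpha branch with the amino acid response, had no call by the brightest probe sets. ATF4, ATF3 and CHAC1 were counted on the amino acid response list, so that the 2 lists do not separate the 2 responses. Of 19 tested genes for chaperones and sensors of the endoplasmic reticulum, 1 had another probe set that was higher, and none was called by limma in either direction on its brightest one (2 had an unadjusted p under 0.05), with a median of 0.066. The chaperone HSPA5 had 1860.1, 1839.9 and 1606 in aPPs and 1864 and 1789.8 in cultured aPPs (0.049, adjusted p = 0.863), with overlapping groups. The kinase ERN1, with 60.7, 48.4 and 34.1 in aPPs and 83.4 and 95.3 in cultured aPPs, had the largest difference of the 19 (0.74, adjusted p = 0.16). Among 22 tested heat shock genes, 2 were higher (9.09 percent, against 2.86 percent of all genes), the collagen chaperone SERPINH1 (0.92, adjusted p = 0.0022; 0.0564 without cultured aPP 1) and HSPA2 (0.46, adjusted p = 0.0483), and the latter lost its call without aPP 1, aPP 2 or either cultured array (adjusted p from 0.13 to 0.357). The heat shock proteins HSPA8 and HSP90AA1 differed by 0.0095 and -0.015. For 28 tested genes of glycolysis and the hypoxia response no call was made by limma on the brightest probe sets (5 had an unadjusted p under 0.05), and 23 of them had negative differences (median -0.16). PFKP had the largest increase of the 28 (0.65, adjusted p = 0.0506 from limma), and 1 of its 3 probe sets was higher. LDHA, which makes lactate, had 63.2, 195 and 174 in aPPs and 41.3 and 37.0 in cultured aPPs (-1.42, adjusted p = 0.215).

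Genes of sterol synthesis rose in part. These enzymes make cholesterol from acetyl-CoA, and their transcription is set by SREBP factors that are held back when sterols are plentiful. Of 30 genes, 21 had a named probe set and 20 were tested, of which 6 were higher (30 percent, against 2.86 percent of all genes) and none was lower, with a median of 0.51. INSIG1, which retains SREBP in the endoplasmic reticulum, had 664, 700.5 and 494 in aPPs and 1569.9 and 1525 in cultured aPPs (log2 difference 1.31, standard error 0.23, adjusted p = 0.00413 from limma). STARD4, a carrier of cholesterol, had 242, 324 and 262 in aPPs and 550.0 and 620.0 in cultured aPPs (1.05, adjusted p = 0.00482). The enzymes MSMO1, FDPS, SC5D and FDFT1 rose by 1.04, 1.15, 0.92 and 0.81 (adjusted p = 0.0141, 0.0471, 0.021 and 0.0241). INSIG1 was dimmest on aPP 3, as was FDFT1 with 1198, 1101 and 703 in aPPs and 1807 and 1651 in cultured aPPs. None of the 6 kept its call without cultured aPP 1 or without cultured aPP 2, although the median of the list was then 0.41 and 0.55. FDPS was also lost without aPP 2 or aPP 3 (adjusted p = 0.089 and 0.133), and SC5D without aPP 3 (0.0532). Of 14 tested genes of fatty acid synthesis, none was called by limma on its brightest probe set (5 had an unadjusted p under 0.05; median 0.20).

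**Figure D3:**
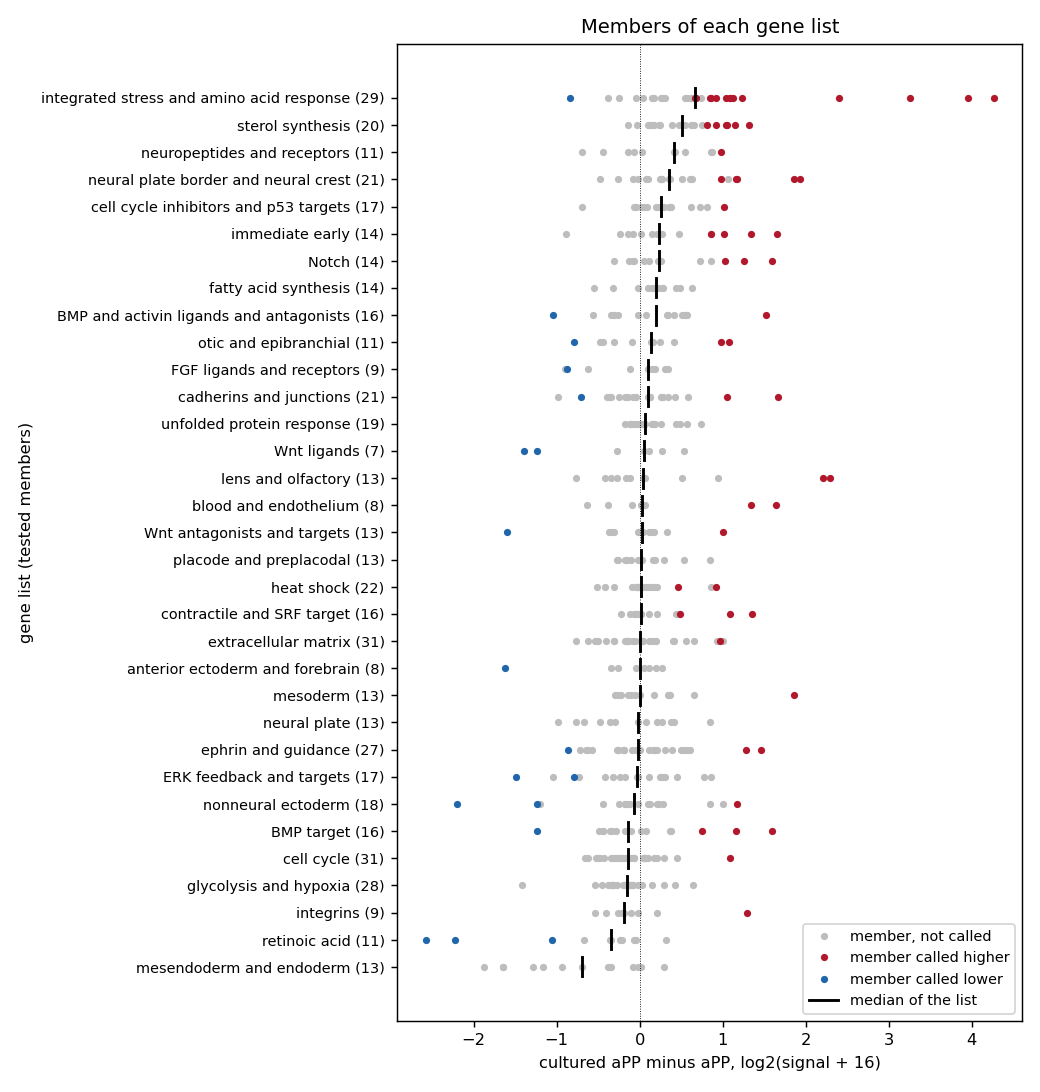
Each point is a tested member of a gene list, placed by its difference between cultured aPPs and aPPs (x axis, log2), with members called higher in red, called lower in blue and not called in grey, and the black bar is the median of the list. The number after each list counts its tested members; the amino acid response (median 0.67) is at the top and mesendoderm and endoderm (median -0.70) at the bottom.

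Among genes of placode and anterior identity, PAX6 and PROX1 rose, HESX1 fell and the general progenitor genes were not called. PAX6 had 103, 44.1 and 46.2 in aPPs and 298 and 432 in cultured aPPs. Both cultured values lay above the highest fresh one, which came from aPP 1 (log2 difference 2.30, standard error 0.31, adjusted p = 0.000596 from limma). PROX1, a homeodomain factor needed for lens fiber elongation in the mouse, had 26.9, 11.4 and 9.98 in aPPs and 108 and 151 in cultured aPPs, again with the highest fresh signal on aPP 1 (log2 difference 2.21, standard error 0.24, adjusted p = 0.000123 from limma). Both were called whichever of the 5 arrays was left out, and not without normalization (adjusted p = 0.132 and 0.0624). They are the 2 of 13 tested lens and olfactory genes that were called by their brightest probe set (15.4 percent, against 2.86 percent of all genes). A second probe set of PITX1 was also higher, while its brighter one was not called (0.95, adjusted p = 0.178). Crystallins, the structural proteins of the lens, were not called: ASL1, the delta-crystallin gene, was dim with 14.9, 12.7 and 4.95 in aPPs and 9.03 and 6.46 in cultured aPPs (-0.16, adjusted p = 0.764), and CRYBA4 had 100.9, 45.2 and 64.4 in aPPs and 70.4 and 68.7 in cultured aPPs (0.041, adjusted p = 0.967).

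HESX1, a homeodomain repressor of the anterior neural border and pituitary, had 476, 367 and 368 in aPPs and 104 and 135 in cultured aPPs. Every cultured signal was below every fresh one (log2 difference -1.63, standard error 0.20, adjusted p = 0.000288 from limma). OTX2, a factor of the anterior head, had 1297, 1235 and 915 in aPPs and 936 and 843 in cultured aPPs, and the groups overlapped (-0.35, adjusted p = 0.308), although its dimmer probe set, with means of 358 and 179, was lower (adjusted p = 0.00875). SIX3, a homeodomain factor of the rostral forebrain and anterior placodes, had 233, 100.8 and 119 in aPPs and 127 and 187 in cultured aPPs (0.11, adjusted p = 0.897), highest on aPP 1 and with overlapping groups. HESX1 was the only 1 of 8 tested anterior genes called by its brightest probe set (12.5 percent, against 1.68 percent of all genes lower). Of 13 tested genes of the preplacodal region, none was called by limma in either direction (2 had an unadjusted p under 0.05; median 0.022). EYA2, a phosphatase and transcriptional coactivator, had 466, 253 and 230.4 in aPPs and 309 and 373 in cultured aPPs (0.16, adjusted p = 0.843), and DLX5, a homeodomain factor of the neural plate border, had 2907, 2917 and 2752 in aPPs and 2511 and 2567 in cultured aPPs (-0.17, adjusted p = 0.569). Of 11 tested otic and epibranchial genes, SOHO1 and SOX8 were higher and SPRY2 was lower (18.2 and 9.09 percent, against 2.86 and 1.68 percent of all genes). SOHO1, a homeobox gene of the otic region, had no present call in aPPs and was at least 1.93-fold higher (adjusted p = 0.00576; 0.125 without cultured aPP 2).

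Several factors of the neural plate border and neural crest rose. Of 21 tested, 5 were higher (23.8 percent, against 2.86 percent of all genes) and none was lower, and 17 had positive differences (median 0.35). TFAP2B, a transcription factor of the AP-2 family, had 6.27, 6.05 and 8.16 in aPPs and 95.3 and 52.4 in cultured aPPs (log2 difference 1.93, standard error 0.26, adjusted p = 0.000634 from limma). SNAI1, a zinc finger repressor active when epithelia give rise to migrating cells, had 134, 116 and 164 in aPPs and 578 and 503 in cultured aPPs (log2 difference 1.86, standard error 0.28, adjusted p = 0.00151 from limma). Both held whichever of the 5 arrays was left out. TFAP2C of the same family, the homeodomain factor MSX1 and the Sox factor SOX8 rose by 1.18, 1.16 and 0.98 (adjusted p = 0.0109, 0.0106 and 0.0087) and lost their calls when either cultured array was left out (adjusted p from 0.0553 to 0.217). Defining factors of the neural crest were not called: FOXD3 had 36.0, 23.0 and 30.8 in aPPs and 14.9 and 18.8 in cultured aPPs (-0.48, adjusted p = 0.456), SOX10 -0.076 (adjusted p = 0.88), SOX9 0.25 (0.62) and PAX7 0.25 (0.479). In the neural plate list none of 13 tested genes was called by limma (5 had an unadjusted p under 0.05). The neural adhesion molecule CDH2 had 695, 424 and 545 in aPPs and 276 and 259 in cultured aPPs (-0.98, adjusted p = 0.0548) and the pan-neural factor SOX3 had 288, 333 and 299.9 in aPPs and 139 and 250.2 in cultured aPPs (-0.67, adjusted p = 0.128), both without overlap but above the threshold.

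Of 14 tested immediate early genes, which respond to stimuli without new protein synthesis, 4 were higher (28.6 percent, against 2.86 percent of all genes) and none was lower. KLF6, a zinc finger factor, had 432, 275 and 395 in aPPs and 1206 and 1144 in cultured aPPs, and all 3 of its probe sets rose (log2 difference 1.66, standard error 0.22, adjusted p = 0.000551 from limma). BTG2, which restrains proliferation, had 251, 239 and 249.9 in aPPs and 512 and 521 in cultured aPPs (1.02, adjusted p = 0.00225; 0.0545 and 0.0602 without cultured aPP 1 and 2). KLF2, a factor of the same family, had no present call in aPPs, with 11.99, 12 and 12.3 in aPPs and 59.1 and 52.0 in cultured aPPs (1.35, adjusted p = 0.00317; 0.0645 without cultured aPP 1). The fourth was ATF3, described above, while EGR1 had 75.3, 31.3 and 21.1 in aPPs and 80.0 and 84.5 in cultured aPPs (0.85, adjusted p = 0.156), with aPP 1 close to the cultured arrays, and MYC differed by 0.15. Of 14 tested Notch genes, the target genes HEY1, HES4 and HES5 were higher (21.4 percent, against the same 2.86 percent) and none was lower. HEY1, a repressor induced by Notch and by BMP, had 155, 175 and 176 in aPPs and 553 and 526 in cultured aPPs (log2 difference 1.59, standard error 0.20, adjusted p = 0.00035 from limma). HES4 and HES5 rose by 1.25 and 1.03 (adjusted p = 0.0112 and 0.0216); HES4 lost its call without either cultured array (0.0861 and 0.167) and HES5 without cultured aPP 2 (0.387) or aPP 2 (0.0779). The ligands JAG1 and DLL1 had 0.86 and 0.73 and were not called (adjusted p = 0.0504 and 0.345), and NOTCH1 had 0.23.

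The 15 largest decreases were led by PDZK1IP1, a small membrane protein, and by the retinoic acid degrading enzyme CYP26A1. CYP26 enzymes clear retinoic acid and keep anterior tissue free of it, and CYP26A1 is itself raised by retinoic acid in many tissues. CYP26A1 had 653, 580.3 and 529 in aPPs and 75.2 and 95.5 in cultured aPPs. Both cultured signals lay far below all fresh ones (log2 difference -2.58, standard error 0.21, adjusted p = 7.69e-06 from limma). CYP26C1, a second enzyme of this family, had 319.6, 202 and 186 in aPPs and 46.0 and 28.4 in cultured aPPs, and both of its probe sets fell (log2 difference -2.23, standard error 0.29, adjusted p = 0.000551 from limma). RARB, a retinoic acid receptor and a target of the pathway, had 550.0, 531 and 642 in aPPs and 282 and 251 in cultured aPPs (-1.06, adjusted p = 0.0145; 0.113 and 0.19 without cultured aPP 1 and 2). Of 21 genes of the pathway, 17 had a named probe set and 11 were tested, of which these 3 were lower (27.3 percent, against 1.68 percent of all genes) and none was higher (median -0.34). The synthesizing enzymes were not called: ALDH1A2 had 37.4, 13.6 and 56.8 in aPPs and 36.0 and 16.5 in cultured aPPs (-0.24, adjusted p = 0.759), RDH10 -0.21 (adjusted p = 0.744) and DHRS3, which acts in the reverse direction, -0.67 (0.202).

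PDZK1IP1 had 508, 919 and 1026 in aPPs and 106 and 117 in cultured aPPs (log2 difference -2.65, standard error 0.30, adjusted p = 0.000185 from limma). SLC5A1, a cotransporter of sodium and glucose, had 91.3, 253 and 278 in aPPs and 24.6 and 13.8 in cultured aPPs, and all 3 of its tested probe sets fell (log2 difference -2.55, standard error 0.38, adjusted p = 0.00145 from limma). CHRNA4, a subunit of the nicotinic acetylcholine receptor, had 95.9, 133 and 203 in aPPs and 23.3 and 8.90 in cultured aPPs (-2.30, adjusted p = 0.00135; 0.0512 without cultured aPP 2). In both SLC5A1 and CHRNA4 the lowest fresh array was aPP 1. The endothelin receptor EDNRB (-1.83, adjusted p = 0.0054), the GABA receptor subunit GABBR2 (-1.71, adjusted p = 0.000512), the granule protein SCG2 (-1.71, adjusted p = 0.00549), the small GTPase DIRAS2 (-1.66, adjusted p = 0.000745) and the acyltransferase MOGAT2 (-2.11, adjusted p = 0.000185) fell as well. So did ENPP2, or autotaxin, which makes lysophosphatidic acid (-1.996, adjusted p = 0.000786), and the related ENPP3 (-1.67, adjusted p = 0.000791). Among transcription factors BHLHE22 had 987, 914 and 1603 in aPPs and 435 and 244 in cultured aPPs (log2 difference -1.74, standard error 0.24, adjusted p = 0.000767 from limma), and BCL11A, a zinc finger repressor, fell (-2.01, adjusted p = 0.0024). BCL11A lost its call without cultured aPP 2 (adjusted p = 0.0642), and EDNRB and SCG2 without cultured aPP 1 (0.0764 and 0.0679) or cultured aPP 2 (0.0704 and 0.0894).

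**Figure D4:**
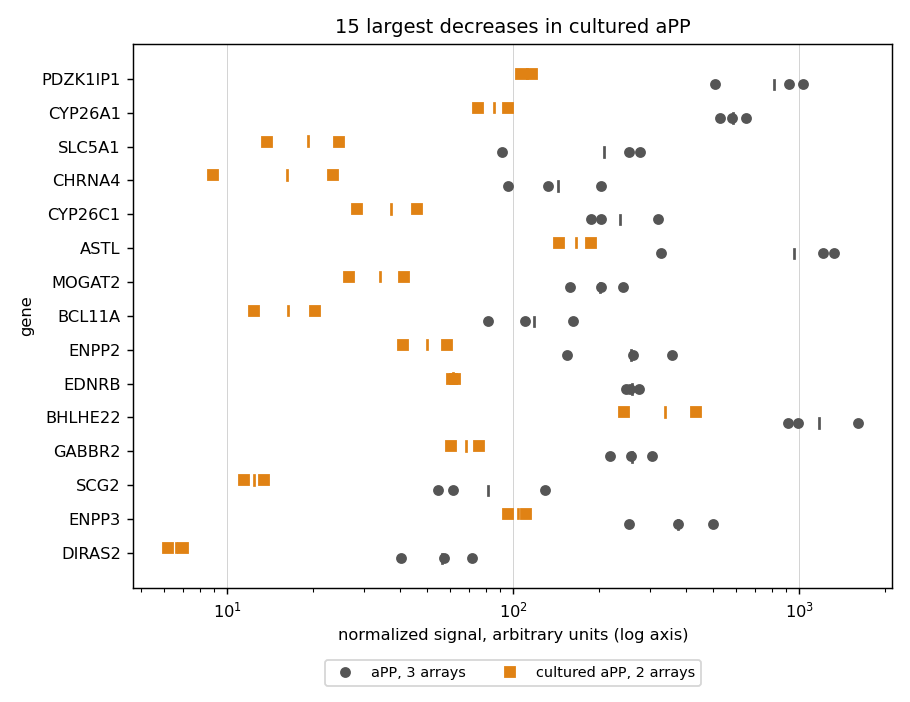
Normalized signals on a log axis of the 15 named genes with the largest decreases, with grey circles for the 3 aPP arrays, orange squares for the 2 cultured aPP arrays and vertical ticks for the group means. Only genes whose groups do not overlap were taken, so that the cultured arrays lie to the left of all aPP arrays by choice. For ASTL and SLC5A1 aPP 1 lies well below aPPs 2 and 3.

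Of 18 tested genes of the nonneural ectoderm, ASTL and EPAS1 were lower and TFAP2C was higher (11.1 and 5.56 percent, against 1.68 and 2.86 percent of all genes; median -0.070). ASTL, a secreted metalloprotease, had 328, 1214 and 1326 in aPPs and 187 and 145 in cultured aPPs (log2 difference -2.20, standard error 0.40, adjusted p = 0.00566 from limma), and its adjusted p was 0.0502 without cultured aPP 1 and 0.0986 without cultured aPP 2. EPAS1, a transcription factor regulated by oxygen, had 939, 1525 and 1120.0 in aPPs and 436 and 544 in cultured aPPs (-1.24, adjusted p = 0.0475), and it lost its call without aPP 2, aPP 3 or either cultured array (adjusted p from 0.0845 to 0.362), or with the array labelled cultured pPP set 2 left out (0.0564). The epithelial adhesion molecules EPCAM and CDH1 differed by -0.12 and 0.28 (adjusted p = 0.594 and 0.333), and the simple epithelial keratin KRT7 had 989, 1022 and 1293 in aPPs and 1292 and 1249 in cultured aPPs (0.21, adjusted p = 0.749).

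In each list of signaling genes a few members were called. Of 9 tested FGF ligands and receptors, FGFR2 was lower (11.1 percent, against 1.68 percent of all genes), with 1734, 1344 and 1273 in aPPs and 768 and 782 in cultured aPPs, and 3 of its 5 probe sets fell (log2 difference -0.88, standard error 0.14, adjusted p = 0.0024 from limma; 0.051 without cultured aPP 1). FGFR1 had 84.4, 64.2 and 56.3 in aPPs and 25.6 and 32.1 in cultured aPPs (-0.90, adjusted p = 0.0716) and FGFR3 differed by -0.11. Of 17 tested feedback and target genes of the ERK pathway, through which FGF receptors act, 2 were lower (11.8 percent, against 1.68 percent of all genes) and none was higher. ETV5, an Ets factor induced by FGF, had 812, 661 and 683 in aPPs and 251 and 239.6 in cultured aPPs (log2 difference -1.49, standard error 0.16, adjusted p = 0.000132 from limma), and SPRY2, an inhibitor of the pathway, fell by 0.80 (adjusted p = 0.0488) and lost its call with any of the 5 arrays left out (from 0.0894 to 0.497). DUSP6, the phosphatase of ERK, had 314, 365 and 210.2 in aPPs and 132 and 133 in cultured aPPs (-1.04, adjusted p = 0.0648), without overlap but above the threshold. DUSP5 and CCND1 had 0.78 and 0.45 (adjusted p = 0.111 and 0.164), so that the list held differences of both signs (median -0.034).

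In the BMP pathway FST, a secreted antagonist of activin and BMP, had 13.7, 13.4 and 8.16 in aPPs and 56.7 and 71.3 in cultured aPPs (log2 difference 1.53, standard error 0.27, adjusted p = 0.00513 from limma; 0.0502 and 0.109 without cultured aPP 1 and 2). The ligand BMP4 had 46.2, 67.8 and 73.4 in aPPs and 21.7 and 21.6 in cultured aPPs (-1.04, adjusted p = 0.0173), and it lost its call without aPP 2, aPP 3 or either cultured array (from 0.051 to 0.172). These were the 2 called of 16 tested ligands and antagonists (6.25 percent in each direction), with BMP7 and BMP2 at 0.52 and -0.34. The 16 tested BMP targets went both ways, with 3 higher and 1 lower (18.8 and 6.25 percent, against 2.86 and 1.68 percent of all genes; median -0.14). ID1, an inhibitor of bHLH factors and a direct target, had 663, 737 and 675 in aPPs and 282 and 288 in cultured aPPs, closely spaced within each group (log2 difference -1.23, standard error 0.16, adjusted p = 0.000512 from limma), while ID2 differed by 0.077. HEY1 and MSX1, described above, were higher, as was TMEM100 (0.75, adjusted p = 0.0441), which lost its call without aPP 2, aPP 3 or either cultured array (adjusted p from 0.079 to 0.363).

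Of 7 tested Wnt ligands, WNT5A and WNT3A were lower (28.6 percent, against 1.68 percent of all genes). WNT5A, a ligand of the noncanonical branch, had 89.8, 129 and 72.6 in aPPs and 28.4 and 23.8 in cultured aPPs (-1.40, adjusted p = 0.00374; 0.0501 and 0.085 without cultured aPP 1 and 2). WNT3A, a ligand of the beta-catenin branch, was dim with 7.49, 41.6 and 45.4 in aPPs and 0.830 and 4.54 in cultured aPPs (-1.23, adjusted p = 0.0472), and lost its call without aPP 2, aPP 3 or either cultured array (from 0.133 to 0.359), or with the array labelled cultured pPP set 2 left out (0.0678). Of 13 tested antagonists and targets of the pathway, 1 was lower and 1 higher (7.69 percent each). SFRP1, a secreted binder of Wnts, had 1969.8, 1875 and 2269 in aPPs and 720.0 and 602 in cultured aPPs (log2 difference -1.60, standard error 0.13, adjusted p = 7.69e-06 from limma). TNFRSF19, a receptor of the TNF family, was higher (1.01, adjusted p = 0.0186) but lost its call without aPP 3 (0.0505) or either cultured array (0.208 and 0.147), and the feedback target AXIN2 had 0.33 (0.415).

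The genes of nociceptin, somatostatin and their receptors were not called. PNOC, the nociceptin precursor, had 481, 279.5 and 319.5 in aPPs and 588 and 713 in cultured aPPs. Both cultured signals lay above all fresh ones, but the difference did not pass (log2 difference 0.86, standard error 0.27, adjusted p = 0.101 from limma). Its receptor gene OPRL1 had 46.0, 56.1 and 42.7 in aPPs and 69.9 and 86.5 in cultured aPPs (0.55, adjusted p = 0.178), also without overlap. SST1, a somatostatin gene of the chicken, had 464, 219.6 and 259 in aPPs and 139.9 and 225 in cultured aPPs, and the groups overlapped (log2 difference -0.70, standard error 0.32, adjusted p = 0.28 from limma). The somatostatin receptor gene SSTR5 had 34.5, 28.7 and 25.8 in aPPs and 50.1 and 40.3 in cultured aPPs (0.42, adjusted p = 0.297). Of 11 tested genes of this group, 7 had an unadjusted p under 0.05 by limma, 5 of them higher and 2 lower. Of all 21591 tested probe sets, 3600 had such a p. The called member of the 11 was ADCYAP1, the precursor of the peptide PACAP (9.09 percent, against 2.86 percent of all genes). It had no present call in aPPs and was at least 1.97-fold higher (adjusted p = 0.014), and lost its call without aPP 2 (0.0524) or either cultured array (0.139 and 0.138).

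Of 31 tested cell cycle genes, CCNE1, the cyclin of entry into S phase, was the called member, with 77.0, 76.4 and 89.4 in aPPs and 200.4 and 180.2 in cultured aPPs (1.09, adjusted p = 0.0109; 0.167 and 0.105 without cultured aPP 1 and 2), which is 3.23 percent of them against 2.86 percent of all genes, and 21 of the 31 had negative differences (median -0.14). Of 17 inhibitors and p53 targets, BTG2 was higher (5.88 percent), and the inhibitor CDKN1A had 12.3, 11.8 and 14.4 in aPPs and 44.3 and 26.6 in cultured aPPs (0.82, adjusted p = 0.0733). Of 16 genes of the contractile machinery, TAGLN (1.35, adjusted p = 0.0111), ACTA1 (1.09, adjusted p = 0.0134) and CNN2 (0.49, adjusted p = 0.0364) were higher (18.8 percent, against 2.86 percent of all genes), while ACTB differed by -0.0084. All 3 lost their calls without either cultured array, with adjusted p of 0.104 and 0.139 for TAGLN, 0.134 and 0.166 for ACTA1, and 0.392 and 0.164 for CNN2, which also lost it without any aPP array (0.0525 to 0.0913).

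Of 21 cadherins and junction genes, 2 were higher and 1 was lower (9.52 and 4.76 percent, against 2.86 and 1.68 percent of all genes). The protocadherin PCDH10 had 0.140, 0.380 and 15.4 in aPPs and 49.0 and 47.2 in cultured aPPs and was at least 2.92-fold higher (adjusted p = 0.00158), in spite of 1 brighter fresh array. The desmosomal DSP was higher (1.05, adjusted p = 0.0388; 0.116, 0.195 and 0.325 without aPP 2, cultured aPP 1 and cultured aPP 2) and PKP2 lower (-0.70, adjusted p = 0.0125; 0.0539, 0.173 and 0.126 without the same arrays). Of 31 matrix genes COL9A1 (0.96, adjusted p = 0.0298; 3.23 percent) and of 9 integrins ITGB3 (1.29, adjusted p = 0.00881; 11.1 percent) were higher, and both lost their calls without either cultured array (adjusted p from 0.0602 to 0.315), COL9A1 also without any aPP array (from 0.0542 to 0.0693). Of 27 genes of ephrin and guidance signaling, 2 were higher and 1 was lower (7.41 and 3.7 percent). The receptor EPHA7 had 61.9, 48.5 and 43.0 in aPPs and 145 and 195 in cultured aPPs (log2 difference 1.47, standard error 0.21, adjusted p = 0.00112 from limma; 0.0522 without cultured aPP 2). SEMA6A had no present call in aPPs and was at least 2.38-fold higher (adjusted p = 0.00374; 0.0908 without cultured aPP 1), while EPHA5 fell by 0.86 (adjusted p = 0.0431) and lost its call with any of the 5 arrays left out (from 0.0608 to 0.299).

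Summed signals of markers of neighboring tissues differed between the groups as well. Over 21 measured genes of mesendoderm and endoderm, the summed signal lay between 3705 and 5974 on the aPP arrays and between 3113 and 3400 on the cultured ones, without overlap. None of the 13 tested members was called by limma on its brightest probe set (6 had an unadjusted p under 0.05), and their median was -0.70. By other probe sets TF was higher (2 of its 3) and OTX2 was lower (1 of its 2). The sum holds both, TF with means of 1679 in aPPs and 1586 in cultured aPPs. OTX2, also on the anterior list, had means of 1149 and 889. The defining genes CHRD, EOMES, FOXA1, HNF4A and NODAL had no present call. The signal varied most among the fresh arrays, as for SOX17, an endoderm factor, with 98.6, 11.9 and 173 in aPPs and 17.5 and 5.94 in cultured aPPs (-1.64, adjusted p = 0.0972), and HHEX, a homeodomain factor of anterior endoderm, with 926, 222 and 1391 in aPPs and 366 and 188 in cultured aPPs (-1.28, adjusted p = 0.19). In both, aPPs 1 and 3 were high, whereas aPP 2 and the cultured arrays were low. TTR, a transport protein of liver and yolk sac, had 23.2, 18.6 and 199 in aPPs and 0.190 and 4.09 in cultured aPPs (-1.88, adjusted p = 0.0548). SOX17 and HHEX were called lower without aPP 2 (adjusted p = 0.000405 and 0.00169), as was the apolipoprotein APOA1 (0.0197). In that fit 5 of the 13 were called, and 241 of all tested probe sets were lower. It leaves out the fresh array that was low in SOX17 and HHEX, like the cultured ones. These calls without aPP 2 thus depend on which array is dropped and add no support for a decrease of the list. With all 5 arrays kept, SOX17 was called lower without normalization (adjusted p = 0.000358 from limma) and in 1 of the 10 other fits. HHEX and APOA1 were called in none of these. TTR was called lower without aPP 1, 2 or 3 (0.0266, 0.0231 and 0.0113), with an offset of 1 (0.0204), with trimmed-mean scaling (0.0337), with a filter of 1 present call (0.0496) and without normalization (1.29e-05). The part of these markers in the decreases above was not tested.

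The summed signal over 25 mesoderm markers moved the other way, at 1385 to 1863 in aPPs and 2514 to 3001 in cultured aPPs. That sum holds SNAI1 and FOXC2, a forkhead factor with 1196, 1037 and 1188 in aPPs and 1908 and 1708 in cultured aPPs (0.66, adjusted p = 0.229), and 10 of the 25, among them the defining genes FOXF1, MEOX2, TBX6, TBX5 and TCF21, had no present call. SNAI1 was the 1 member of 13 tested that was called (7.69 percent, against 2.86 percent of all genes higher). As a set the 13 did not move, with a median difference of 0.0024, 7 positive and 6 negative. TWIST1, a mesenchymal factor, had 35.5, 16.1 and 45.0 in aPPs and 111 and 11.7 in cultured aPPs, high on cultured aPP 1 alone. Markers of blood and endothelium summed to 130 to 162 in aPPs and 278 to 305 in cultured aPPs over 15 genes, of which 5 had no present call, among them the defining genes CDH5, HBA1, HBZ and LMO2. The embryonic globin HBE had 30.4, 23.5 and 59.2 in aPPs and 126 and 167 in cultured aPPs (1.64, adjusted p = 0.0104; 0.068 and 0.166 without cultured aPP 1 and 2) and was higher. The VEGF receptor FLT1, with no present call in aPPs, had 7.03, 8.36 and 14.9 in aPPs and 53.1 and 46.6 in cultured aPPs (1.35, adjusted p = 0.000745). These are 2 of 8 tested members (25 percent, against 2.86 percent of all genes). The globin HBAD differed by 0.068 and the endothelial genes PECAM1 and CD34 by -0.091 and 0.047. KDR and TAL1, both dim, had -0.63 and -0.38 and were not called (adjusted p = 0.168 and 0.438 from limma). The median of the 8 was 0.030, with 5 positive and 3 negative differences, and the sum holds the called HBE and FLT1. Neural plate markers summed to 2038 to 2476 in aPPs and 1578 to 1739 in cultured aPPs over 16 genes, those of the nonneural ectoderm to 14229 to 16390 and 13512 to 13626 over 20, and those of the preplacodal region to 5196 to 6234 and 5166 to 5434 over 14. The preplacodal sums overlap between the groups. What part these tissues have in the increases was not tested.

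The response of aPPs was set beside that of pPPs, whose means came from other arrays. The spread was estimated in 1 fit for both regions, so that the 2 sets of calls are not independent. In cultured pPPs 483 probe sets were higher (2.24 percent) and 366 were lower (1.7 percent) than in pPPs. Of the 454 probe sets higher in cultured aPPs, 197 were also called higher in cultured pPPs, which is 43.4 percent of the former and 40.8 percent of the latter calls, and of the 347 lower, 119 were also lower (34.3 and 32.5 percent). For 1 probe set the calls were opposite. The array labelled cultured pPP set 2 enters these counts, and when it was left out 426 were higher and 536 lower in cultured pPPs, and 146 of the 454 and 80 of the 347 were also called. A difference between the responses passed for 3 of 21591 probe sets (0.0139 percent), and 1335 had an unadjusted p under 0.05. With the array labelled cultured pPP set 2 left out the count was 54, of which 40 had a higher response in aPPs, and without aPP 1 it was 36.

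SP8 was the gene with the clearest difference. Its signals were 1236, 858 and 1184 in pPPs and 1179 and 1486 in cultured pPPs. The 2 cultured aPP signals thus lay in the range of the uncultured pPPs and below the cultured pPPs, and the fresh aPPs alone were low. The response of aPPs exceeded that of pPPs by 2.59 (standard error 0.25, adjusted p = 0.000514 from limma), and by 2.76 with the array labelled cultured pPP set 2 left out (adjusted p = 0.00306). It passed whichever of the 5 aPP arrays was left out.

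FIBIN, a gene for a secreted protein, had 883, 1413 and 1539 in aPPs and 640.2 and 566 in cultured aPPs, with 76.1, 25.2 and 93.1 in pPPs and 528 and 294 in cultured pPPs. Every signal of cultured aPPs was below every fresh one, whereas pPPs had the lowest signals and rose with culture (2.46, adjusted p = 0.00104; 2.87, adjusted p = 0.00292 with 1 cultured pPP array). The difference in aPPs was -1.03 and did not pass (adjusted p = 0.128), and the responses differed by -3.49 (standard error 0.49, adjusted p = 0.0195 from limma). This call was lost without aPP 2, aPP 3, cultured aPP 1 or cultured aPP 2 (adjusted p from 0.0599 to 0.216), and it passed with the array labelled cultured pPP set 2 left out (-3.89, adjusted p = 0.023). The third call is a probe set without a gene name, which had 75.0, 53.01 and 72.8 in aPPs and 61.6 and 91.5 in cultured aPPs and 92.3, 58.5, 81.0, 617 and 466 in pPPs and cultured pPPs. It was high in cultured pPPs alone (difference of the responses -2.43, standard error 0.34, adjusted p = 0.0195; -2.63, adjusted p = 0.023 with the array labelled cultured pPP set 2 left out), and its call was lost without aPP 3 (0.0942) or either cultured aPP array (0.179 and 0.0575).

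For the other genes with the largest differences between the responses, the difference was not called. In this paragraph the value with the array labelled cultured pPP set 2 left out follows each pPP value or difference. SIX3 had -1.98 (-1.84) in pPPs against 0.11 in aPPs (adjusted p of the difference = 0.107 and 0.126). STMN2 had 0.58 (0.42) against 2.16 (0.156 and 0.0943), and the gap junction gene GJA1 -0.99 (-1.19) against 0.58 (0.234 and 0.117). SLC5A1 and CHRNA4, which fell in aPPs, had 0.25 (0.70) and 0.32 (0.96) in pPPs. The adjusted p of their difference was 0.107 and 0.0474 for SLC5A1 and 0.0934 and 0.023 for CHRNA4, so that both passed with the array left out. EPAS1 had 1.14 (0.88) in pPPs against -1.24 in aPPs (0.107 and 0.146), and UPK1B, a uroplakin of epithelial surfaces, 2.46 (2.84) against -0.34 (0.142 and 0.0824). The difference between the responses was 1.56 (1.97) for the Eph receptor EPHA4 (0.319 and 0.0826), 1.54 (2.25) for the Wnt receptor FZD7 (0.571 and 0.0831) and -2.17 (-2.10) for the endoderm factor GATA5 (0.568 and 0.384).

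PAX6 rose in both regions, by 2.30 in aPPs and 2.13 (2.38) in pPPs with that array left out in the second value, and the difference of 0.17 had a 95 percent interval from -0.75 to 1.09, or from -1.14 to 0.97 without the array. CYP26A1 and CYP26C1 fell by 2.58 and 2.23 in aPPs, and had -0.89 (-1.07) and -0.21 (0.20) in pPPs, given in the same way. The difference was not called (adjusted p = 0.0821 for CYP26A1 and 0.124 for CYP26C1), but with that array left out it was called for CYP26C1 (-2.42, adjusted p = 0.0474) and not for CYP26A1 (-1.51, adjusted p = 0.0831).

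**Figure D5:**
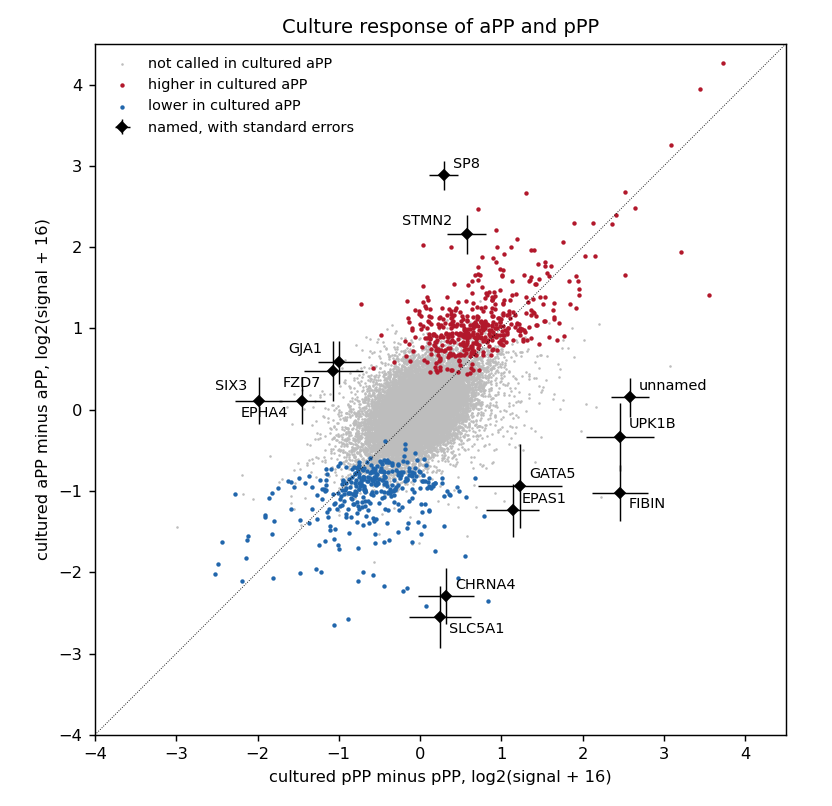
Each point is a tested probe set, placed by its difference between cultured pPPs and pPPs (x axis, log2) and between cultured aPPs and aPPs (y axis, log2), with calls of the latter in color, an equality line and black diamonds with standard errors for the 13 probe sets with the largest or called differences between the responses. SP8 lies at 2.89 in aPPs and 0.29 in pPPs (0.13 with the array labelled cultured pPP set 2 left out), and FIBIN at -1.03 and 2.46.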

How the data were processed

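Total RNA from hand-dissected preplacodal tissue was amplified and labelled with NuGEN Ovation V2 and hybridized to 10 chicken arrays, 1 per sample. The authors calculated MAS5 signals, the deposited intensity in arbitrary units, and detection calls, which are letters (present, marginal or absent). The MAS5 version was not given in the sources used here. Detection calls of 2 columns with 1 shared name were not used, so that 8 arrays give calls. Array control probe sets were left out.

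Signals of the 10 arrays were quantile normalized, 16 was added and log2 taken. Group means of the 4 sample groups were fitted on all 10 arrays with limma 3.58.1 in R 4.3.3 (moderated variances with an intensity trend), with Benjamini-Hochberg adjustment over 21591 probe sets. The groups came from the sample labels. A 95 percent interval reached 0.44 (log2, median) to either side of the difference, set by the number of arrays. Symbols came from the platform annotation, updated through RefSeq gene IDs; 27168 probe sets have 1 symbol, 177 several and 11094 none. Array probe sets were not matched to a genome.

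The comparison, the 33 gene lists and the genes they hold were chosen with earlier results of these data known. Named are the 15 largest increases and decreases among called genes without overlap, PAX6, the neuropeptide genes and anterior and placode genes, up to 4 members per list and those whose role is needed, and the 6 largest differences between the aPP and pPP responses each way; further called members are named where a list is described. Alternatives were other offsets, scalings and filters, no variance trend, only the arrays compared, the set number as a block and each array left out. The procedure was tested on simulated data.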

Additional observations from a re-analysis of the deposited data

Results flagged for a closer look

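The 3 probe sets below were singled out because the change with culture differed between aPPs and pPPs by limma's test of that difference, adjusted over all 21591 tested probe sets. For SP8 the aPP response exceeded the pPP response by 2.59 on the log2 scale (adjusted p = 0.000514). For FIBIN the aPP response was lower by a difference of -3.49 (adjusted p = 0.0195), and for a probe set without a gene name by a difference of -2.43 (adjusted p = 0.0195). Groups of 3 and 2 arrays are too small to look for single outlying samples. Outside the tested probe sets, 494 were present on cultured aPP 1 but on fewer than 2 of the 8 arrays with calls, and these were left out of all counts.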

How the results depend on the processing

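Each alternative changed 1 choice. Of 95 named genes that were called, 38 stayed called in all 5 fits that left out an aPP or cultured aPP array, and none changed sign in any fit. The groups do not overlap for these genes, so that leaving out an array or changing the offset could not change a sign. Counts that moved by more than 1.5 times were these. Leaving out 1 of the 5 arrays gave 89 to 355 probe sets higher, 55 to 302 lower and 1 to 36 with a response that differs between aPPs and pPPs, against 454, 347 and 3. Without normalization 14 were higher, 20 lower and 0 differed in response by limma, where 150 had an unadjusted p under 0.05. Scaling to the trimmed mean gave 537 lower. With no filter on present calls 202 were lower and 1 differed in response. For the difference in response, an added offset of 1 gave 1, an offset of 64 gave 10 and a present call on at least 1 array gave 10. With the set as a replicate block 593 were higher, 539 lower and 15 differed in response, and 742 of the 801 were still called. The labels do not tie the sets. Departures from the group means correlated at -0.00805 and 0.0772 for sets 1 and 2, and at -0.0772 and 0.00805 between unlike sets. With 2 cultured arrays their departures mirror each other, so that these values cannot show whether sets are tied. Leaving out the array labelled cultured pPP set 2, an alternative chosen after seeing the data, gave 489 higher, 372 lower and 54 that differ in response. The cause of these shifts was not tested. With the arrays of the comparison alone, which give no pPP response, 401 were higher and 304 lower. Counting all tested probe sets of a gene, 15 of 29 genes of the amino acid response had a probe set that was higher, against 14 by the brightest. This rule gives genes with several probe sets more chances, and the share of all genes under it is not given here. Without normalization the calls kept among named genes were those of PSPH, CEBPB, CHAC1, SP8, ANXA8L1, SCIN, ANXA1, SLC28A3, PDZK1IP1, CYP26A1, SLC5A1, CHRNA4, MOGAT2, DIRAS2, PCDH10 and WNT3A. With an offset of 1 the calls of SLC28A3, KLF2, HES5, TAGLN, DSP, WNT3A, FDPS, EPAS1, ATF3, TMEM100 and HSPA2 were lost. Their adjusted p was then 0.0542 to 0.0983 by limma, and TTR was called. The response differences of FIBIN and the probe set without a gene name were lost as well (0.0935). With an offset of 64 the calls of FST, EPHA5, SPRY2 and FDPS were lost, and 5 others among the genes followed were gained. The number of cultured arrays limits the precision, and differences of dim genes are compressed by the offset.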
